A study of Mus musculus with 49 samples.

Results

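The genes described here encode 7 chemokines (Cxcl1, Cxcl2, Cxcl5, Cxcl10, Cxcl16, Ccl2 and Ccl20), a pair of cell adhesion molecules (Icam1 and Vcam1) and the NF-κB inhibitor IκBα (Nfkbia). They were the rows of the deposited mouse count table whose Ensembl gene identifier carried one of these symbols, which gave 10 of its 46078 gene identifiers, of which 45143 have a symbol. Their levels were followed across all 16 conditions of a study of hepatocytes that lose and change their identity in culture.

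All cells were wild type C57BL/6J, and each group below is given with its number of libraries. Hepatocytes from collagenase-digested livers of 10-week-old mice were sequenced freshly isolated (FH, 3), after plating for 3 h, 1 day, 2 days, 4 days, 1 week and 2 weeks in medium with epidermal growth factor (3 each), after 1 week with 0.3 µM verteporfin, an inhibitor of Yap, or with its solvent DMSO (2 each), and as serially passaged dedifferentiated hepatocytes, termed dediHeps (5). The dediHeps were also sequenced as aggregates in low-attachment wells (3), as spherical organoids in Matrigel (dediHep-SO, 3) and as budding organoids after retroviral expression of Cdx2 (dediHep-BO, 3), so that only the budding organoids of this origin carry a transgene. Per the study's methods, spherical organoids formed in a medium with epidermal growth factor, Noggin, R-spondin1, Wnt3a and CHIR99021, the last pair was taken out for the budding organoids of dediHep origin, and crypts never received it. Spherical organoids of progenitor cells from fetal intestine at E13.5 (FIPC-SO, 3), budding organoids of intestinal stem cells from 10-week-old mice (ISC-BO, 4) and chemically induced liver progenitors, which are hepatocytes dedifferentiated with the small molecules Y-27632, A-83-01 and CHIR99021 (CLiP, 3), completed the set. The labels give each dediHep library a culture name of its own, and 3 of these cultures also gave the 3 aggregate libraries and 3 gave the 3 dediHep-SO libraries. No label says whether the libraries of the other groups came from separate animals or platings, so p-values measure the spread between these libraries.

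In the CEL-seq2 assay only the 3′ ends of transcripts are sequenced and unique molecular identifiers (UMIs) are counted, and levels are given as counts per 1000000 of the library total (CPM). Library totals ran from 861047 to 3872936 UMI counts with a median of 1976760, so that 3 counts, taken here as the floor of detection, equal 0.775 to 3.48 CPM. No entry of the table exceeded 4096 counts, the number of sequences that a 6-base UMI can take, and Ccl2 came close to it with 3656 counts in CLiP replicate 2 and 3587 in dediHep replicate 4. The highest levels of Ccl2 may therefore be underestimated, although a correction for UMI collisions, chosen after seeing the data, changed no call on any member. The summed level of 6 hepatocyte markers was 10002.6 to 11328.8 CPM in FH and 939.4 to 4623.0 CPM in dediHeps, where the cholangiocyte marker list reached 1061.1 to 1831.1 CPM. Sums of abundant hepatocyte markers, here and below, could be too low because of the same ceiling.

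NF-κB dimers are held in the cytoplasm by IκB proteins. Ligands of the TNF, interleukin-1 and Toll-like receptor families, or cell injury, lead to the destruction of IκB, and the freed dimers enter the nucleus and switch on chemokines, adhesion molecules and IκBα itself, which closes the loop. In the liver, some of these chemokines are known for drawing neutrophils and monocytes to injured tissue, and ICAM-1 and VCAM-1 for letting leukocytes attach.

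On the GRCm38 build, Cxcl5 (ENSMUSG00000029371, chr5:90759360-90761624), Cxcl1 (ENSMUSG00000029380, chr5:90891241-90893115) and Cxcl2 (ENSMUSG00000058427, chr5:90903871-90905938) lie on the plus strand within one cluster of chromosome 5, and Cxcl10 (ENSMUSG00000034855, chr5:92346638-92348889) lies farther along on the minus strand. Chromosome 11 holds Cxcl16 (ENSMUSG00000018920, chr11:70453983-70459984, minus strand) and Ccl2 (ENSMUSG00000035385, chr11:82035571-82037453, plus strand), and chromosome 1 holds Ccl20 (ENSMUSG00000026166, chr1:83116766-83119167, plus strand). Icam1 (ENSMUSG00000037405) is at chr9:21015985-21028817 on the plus strand, Vcam1 (ENSMUSG00000027962) at chr3:116109949-116129688 on the minus strand and Nfkbia (ENSMUSG00000021025) at chr12:55489410-55492647 on the minus strand.

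The RefSeq promoter table (GRCm38.p6, 250 bases before to 50 after each gene start) held 6 of the members, and a 10-letter NF-κB consensus was searched on both strands. It was found in the promoters of Cxcl1, Cxcl2, Cxcl10, Ccl20 and Nfkbia but not in that of Icam1, that is in 5 of 6, whereas 4.51% of all 32851 promoters in the table held it. Of the others, Cxcl5, Cxcl16, Ccl2 and Vcam1 have no sequence shown. The matches are printed below, gene strand from 5′ to 3′ with 10 bases on either side, because these 5 members share the consensus near their start, and the capitals mark the consensus.
Cxcl1, chr5:90891164-90891193, plus strand: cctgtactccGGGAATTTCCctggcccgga
Cxcl2, chr5:90903792-90903821, plus strand: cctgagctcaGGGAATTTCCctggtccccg
Cxcl10, chr5:92349029-92349058, minus strand: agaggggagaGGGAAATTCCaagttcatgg
Cxcl10, chr5:92348973-92349002, minus strand: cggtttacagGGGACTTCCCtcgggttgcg
Ccl20, chr1:83116676-83116705, plus strand: aatcaatgggGGAAAACCCCgggtgagaac
Nfkbia, chr12:55492657-55492686, minus strand: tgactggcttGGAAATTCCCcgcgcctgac
The matches start at -71 (Cxcl1), -97 (Cxcl2), -159 and -103 (Cxcl10), -80 (Ccl20) and -29 (Nfkbia) from the RefSeq gene start. For Cxcl1 and Cxcl2 that start differs from the gene position given above. Cxcl1 and Cxcl2 carry the same 10 letters, and each also matches on the other strand in an overlapping window shifted by 1 base. The Cxcl10 promoter was the only one of the 6 to hold the AP-1 motif TGANTCA, present in 7.81% of all promoters, and the only one to hold the core of the interferon-stimulated response element, GAAANNGAAA, present in 3.44%. The latter reads:
Cxcl10, chr5:92349083-92349112, minus strand: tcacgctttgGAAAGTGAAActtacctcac
A match is a description of letters in this window and not evidence of binding.

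At 3 h after plating, 6 of the 9 members that could be tested had risen over FH, namely Cxcl1, Cxcl2, Cxcl10, Ccl2, Icam1 and Nfkbia, compared with 3.06% of the 12443 genes tested. The members were chosen with earlier results of these data known. Such shares, here and below, therefore describe the members and do not test them as a set. A gene was called higher or lower when edgeR's quasi-likelihood test gave a Benjamini-Hochberg adjusted p under 0.1 and a change of more than 2 on the log2 scale, the thresholds of the study. The tenth member, Ccl20, had no count in any FH, 3 h or 1 day library and did not pass the filter on low counts.

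Among the chemokines, Cxcl10, a ligand of CXCR3 that attracts T cells, was at its highest at 3 h. Its level was 23.2, 1.65 and 3.28 CPM in the FH libraries and 721.0, 787.2 and 1150.6 CPM at 3 h. Every 3 h library thus lay far above every FH library, and the increase was 6.71 ± 0.783 (log2 fold change ± SE, adjusted p = 8.55e-06). Without FH replicate 1, the highest of its group, the same change was 8.46.

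Cxcl1 and Cxcl2, ligands of CXCR2 that attract neutrophils, are neighbours on chromosome 5. Cxcl1 rose from 36.8, 23.1 and 16.4 CPM in FH to 306.2, 360.4 and 275.5 CPM at 3 h, a change of 3.72 ± 0.441 (adjusted p = 1.02e-05) with no overlap between the groups. Cxcl2 rose from 1.6, 0 and 1.97 CPM to 871.0, 80.9 and 334.4 CPM, a change of 8.46 ± 1.12 (adjusted p = 4.08e-05). The 3 h libraries of Cxcl2 spanned a much wider range than those of Cxcl1, and the change of Cxcl2 was 7.46 without 3 h replicate 1 and 9.07 without FH replicate 3.

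Ccl2, the main monocyte attractant, was at 4.8, 0 and 1.31 CPM in FH, where replicate 1 held 6 of the 8 counts. At 3 h its level was 124.8, 5.92 and 37.0 CPM, in the same order of libraries as Cxcl2, and the change was 4.85 ± 1.01 (adjusted p = 0.00425). It was 6.21 without FH replicate 1 and 3.51 without 3 h replicate 1, and stayed called in both cases. Cxcl5 and Cxcl16 did not pass the thresholds at 3 h: Cxcl5 had 1 count in all FH libraries together and 1 at 3 h, and Cxcl16 was at 1.6, 4.13 and 3.94 CPM in FH and at 3.06, 1.97 and 0.685 CPM at 3 h.

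Of the adhesion molecules, Icam1 rose and Vcam1 did not pass the test. Icam1 encodes ICAM-1, the ligand of leukocyte β2 integrins, and its level went from 3.2, 1.65 and 3.28 CPM to 90.3, 38.1 and 43.9 CPM (4.44 ± 0.457, adjusted p = 1.68e-06). Vcam1, which encodes the ligand of the integrin VLA-4, stood at 5.6, 7.43 and 2.63 CPM in FH and at 6.89, 1.32 and 2.74 CPM at 3 h, and the ranges overlapped.

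Nfkbia was abundant from the start, with 229.6, 180.8 and 164.7 CPM in FH, and reached 663.6, 755.0 and 875.8 CPM at 3 h. The rise of 2.08 ± 0.261 (adjusted p = 1.98e-05) was small beside that of the chemokines and lay just over the fold threshold. It was 1.99 without FH replicate 3, 1.95 without 3 h replicate 3 and 2.00 with library totals in place of the trimmed mean of M-values (TMM) scaling, so that the call but not the direction depended on these choices.

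Other cell types could contribute such transcripts in bulk RNA, in which fewer cells of a type and less RNA per cell cannot be told apart. Of 11 macrophage markers, all were counted in FH (summed level 57.1 to 182.5 CPM), whereas 7 of them, including Adgre1, Marco, Timd4 and Vsig4, had no count at 3 h, where the sum of 63.8 to 109.5 CPM came mostly from Cd14 (61.8 to 108.7 CPM). The 8 endothelial markers summed to 136.0 to 204.8 CPM in FH and to 35.6 to 75.6 CPM at 3 h, and the 8 stellate and fibroblast markers to 50.5 to 144.0 CPM and 18.4 to 23.3 CPM. Of the cholangiocyte list 2 of 4 tested genes were higher at 3 h, Sox9 and Spp1, while Krt19 had no count in FH or at 3 h. The list summed to 10.7 to 67.6 CPM in FH and 413.0 to 432.4 CPM at 3 h. The part of these cell types in the rise of the 6 members was not tested.

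**Figure D1:**
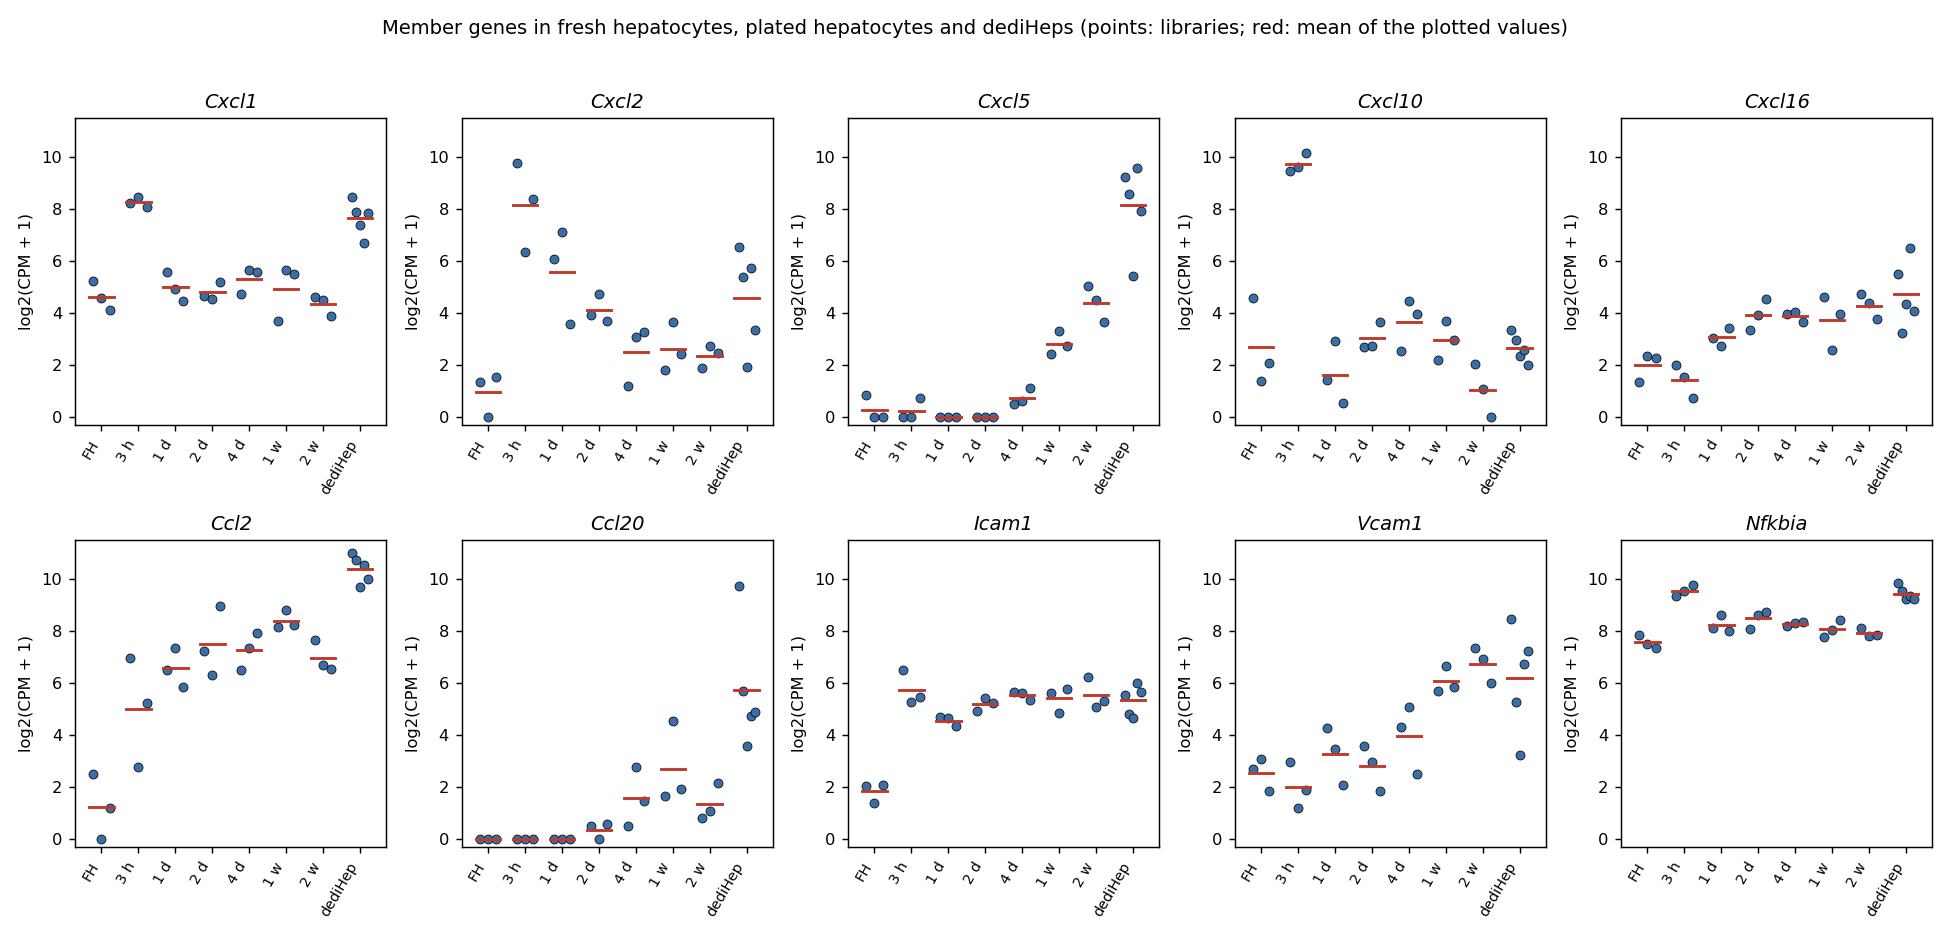
Levels of the 10 member genes as log2(CPM + 1) in freshly isolated hepatocytes (FH), after 3 h to 2 weeks of plating and in dediHeps, where each point is a library and each red line the mean of the points (3 libraries a group, 5 for dediHep). Cxcl1, Cxcl2, Cxcl10 and Nfkbia peak at 3 h, Ccl2 and Icam1 remain above FH at every time, and Cxcl5, Ccl20 and Vcam1 are high late, with Ccl20 of dediHep replicate 1 (865.3 CPM) far above the other libraries.

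The early rise was short for some members and lasting for others. Between 3 h and 1 day, 5 of the 9 tested members were called, all lower, against 24.2% of all genes called in either direction, of which 44.3% were higher (71.8% with library totals as the scale). Cxcl10 fell by 8.96 ± 0.868, Cxcl1 by 4.00 ± 0.438, Cxcl2 by 3.31 ± 0.774, Icam1 by 2.06 ± 0.36 and Nfkbia by 2.04 ± 0.259 on the log2 scale, with adjusted p from 8.74e-08 to 0.00161. At 1 day the level of Cxcl10 was 1.74, 6.67 and 0.463 CPM and that of Cxcl1 was 47.9, 30.0 and 21.3 CPM, all below the lowest 3 h library. The calls on Icam1 and Nfkbia sat at the edge of the fold threshold. Without 1 d replicate 3 they were -1.96 and -1.92 and neither was called, Icam1 was also lost without 3 h replicate 1 (-1.58) and Nfkbia without 3 h replicate 3 (-1.89) or 1 d replicate 1 (-1.92). With library totals as the scale they were -1.32 and -1.30, which left 3 members called. The fall of Cxcl2 was -2.29 without 3 h replicate 1 and -4.24 without 1 d replicate 2, and that of Cxcl10 -10.32 without 1 d replicate 2.

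How the libraries were scaled also shaped the comparisons with FH. Library totals in place of TMM, an alternative chosen after seeing the data, moved the median log2 fold change of all genes by 0.66 to 0.88 in the comparisons of 1 day to 2 weeks with FH and by 0.74 between 3 h and 1 day, but by -0.08 between FH and 3 h. It also moved the share of higher genes among all calls from 37.7% to 64.9% at 1 day, 43.3% to 69.9% at 2 days, 48% to 73.1% at 4 days, 50.8% to 73.9% at 1 week and 48% to 67% at 2 weeks. The changes below are relative to TMM, and those of Ccl2, Icam1, Vcam1, Cxcl2 and Cxcl5 that were called against FH were called on either scale.

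Ccl2 and Icam1 were higher than FH at every time. For Ccl2 the level was 91.4, 165.7 and 57.8 CPM at 1 day, 149.1, 78.3 and 507.2 CPM at 2 days, 90.7, 164.9 and 247.4 CPM at 4 days, 288.0, 446.8 and 301.9 CPM at 1 week and 202.8, 102.3 and 94.1 CPM at 2 weeks. No plated library from 1 day on came near the FH range of up to 4.8 CPM, and the log2 fold changes over FH were 5.03, 6.09, 5.48, 6.53 and 5.31 in that order, with adjusted p from 1.9e-05 to 0.000489. Without FH replicate 1, which held 6 of the 8 FH counts, they were larger, between 6.4 and 7.90, and without 2 d replicate 3 the value at 2 days was 5.05.

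Icam1 settled at an even level. After 19.4 to 25.2 CPM at 1 day it ran from 28.4 to 74.8 CPM between 2 days and 2 weeks, against 1.65 to 3.28 CPM in FH, and its log2 fold changes over FH were 2.38, 2.91, 3.17, 3.09 and 3.43 from 1 day to 2 weeks (adjusted p from 1.85e-06 to 0.000338). The 2 weeks libraries and the 3 h libraries overlapped.

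Cxcl2 declined in steps, at 67.0, 138.1 and 11.1 CPM at 1 day, 14.4, 25.8 and 12.1 CPM at 2 days and 1.31, 7.59 and 8.82 CPM at 4 days. It was called higher than FH at 1 day (5.15 ± 1.09, adjusted p = 0.000845) and 2 days (2.98 ± 1.15, adjusted p = 0.0464) but not later. The 1 day change was 4.22 without 1 d replicate 2 and 5.77 without FH replicate 3, and the 2 days change was 3.60 without FH replicate 3. The 2 days call was lost without FH replicate 2 (2.51) or 2 d replicate 2 (2.60). Between 1 day and 2 weeks it fell by 4.11 ± 0.912 (adjusted p = 0.00144), and without 1 d replicate 2 the change was -3.18.

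Vcam1 and Cxcl5 appeared late. Vcam1 was at 19.3, 33.6 and 4.7 CPM at 4 days, which overlapped the earlier times, and at 51.3, 101.3 and 56.8 CPM at 1 week and 161.7, 120.4 and 63.9 CPM at 2 weeks. The last 6 libraries all lay above every earlier one, and the rise over FH was 2.87 ± 0.68 at 1 week (adjusted p = 0.0016) and 3.76 ± 0.688 at 2 weeks (adjusted p = 0.000106). Cxcl5, another CXCR2 ligand, had no count in the 6 libraries of 1 day and 2 days, 0.438 to 1.18 CPM at 4 days, 4.37 to 8.9 CPM at 1 week and 32.1, 22.2 and 11.6 CPM at 2 weeks.

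The fitted change of Cxcl5 over FH was 3.54 ± 1.01 at 1 week (adjusted p = 0.00825) and 5.53 ± 0.912 at 2 weeks (adjusted p = 6.7e-05). Because FH held 1 count of Cxcl5 in all, the pooled ratio is a better guide, at 23.8-fold for 1 week (95% counting interval 4.05 to 963.3) and 100.9-fold for 2 weeks (17.8 to 4014.2). Without FH replicate 1, which held that count, the fitted changes were 6.38 and 8.37 and the pooled levels were at least 5.45-fold and 23.1-fold higher, with the floor of 3 counts set over the pooled group. Without FH replicate 3 the fitted change at 2 weeks was 4.94 and the ratios were 14.7-fold and 62.3-fold. Against the 1 day libraries, which held none, Cxcl5 at 2 weeks was at least 55.3-fold higher, and at least 36.0-fold without 1 d replicate 1.

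In all, the members called against FH were 3 of 9 higher at 1 day (6.57% of all genes were), 3 at 2 days (9.21%), 2 at 4 days (11.4%), 4 at 1 week (13.2%) and 4 at 2 weeks (14.1%). Lower than FH were Cxcl10 at 1 day (-2.25 ± 0.818, adjusted p = 0.0381), 1 of 9 members against 10.9% of all genes, and Cxcl10 at 2 weeks (-3.01 ± 0.907, adjusted p = 0.00906), 1 of 9 against 15.3%. Both of these calls rested on FH replicate 1 with its 23.2 CPM, without which the changes were -0.49 and -1.24 and not called. The 1 day call was also lost without 1 d replicate 1 (-1.93) or 3 (-1.76), while the changes grew to -3.61 without 1 d replicate 2 and to -4.10 without 2 w replicate 1. From 1 day to 2 weeks, 2 of 9 members rose (8.64% of all genes), Cxcl5 and Vcam1 (3.42 ± 0.625, adjusted p = 0.000215, and 4.02 without 1 d replicate 1), and Cxcl2 fell, 1 of 9 against 6.71%. All comparisons with FH share the same 3 FH libraries.

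Cxcl16, Cxcl1 and Nfkbia did not pass the thresholds against FH from 1 day on. Cxcl16, a membrane-bound chemokine that CXCR6-bearing T cells recognise, went from 5.71 to 9.72 CPM at 1 day to 12.8 to 25.8 CPM at 2 weeks, against 1.6 to 4.13 CPM in FH. Its change at 2 weeks was 1.87 ± 0.579 (adjusted p = 0.0109), below the fold threshold, and 2.60 with library totals as the scale, under which it was also called at 2 days, 4 days and 1 week. Cxcl1 ran from 12.0 to 50.4 CPM between 1 day and 2 weeks, overlapping FH at each time, and Nfkbia from 222.1 to 434.6 CPM, with log2 fold changes over FH of 0.04, 0.14, -0.18, -0.36 and -0.33 that took the other sign from 4 days on when library totals were the scale. Ccl20, the ligand of CCR6, reached 22.8 CPM in 1 w replicate 2 and stayed at or under 5.97 CPM in the other libraries from FH to 2 weeks.

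The marker lists moved in this period too. All 11 macrophage markers were counted at 1 day (summed level 65.7 to 262.9 CPM) and 10 of 11 at 2 weeks (17.4 to 177.3 CPM). Endothelial markers summed to 31.9 to 174.6 CPM at 1 day and to 7.05 to 9.29 CPM at 2 weeks, when stellate and fibroblast markers summed to 41.8 to 184.1 CPM with all 8 detected, and the 4 mesothelial markers, at 0 in FH, summed to 297.3 to 491.4 CPM at 2 weeks, nearly all of it Msln (288.0 to 489.0 CPM). At 2 weeks 4 of 4 tested cholangiocyte markers were higher than in FH (summed level 1145.1 to 1373.1 CPM), as were 2 of 3 intestinal epithelial markers (87.1 to 186.4 CPM), and 5 of 6 hepatocyte markers were lower (1323.1 to 1871.0 CPM). The part of these cell types in the late levels of Vcam1, Cxcl5, Ccl2 and Icam1 was not tested.

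**Figure D2:**
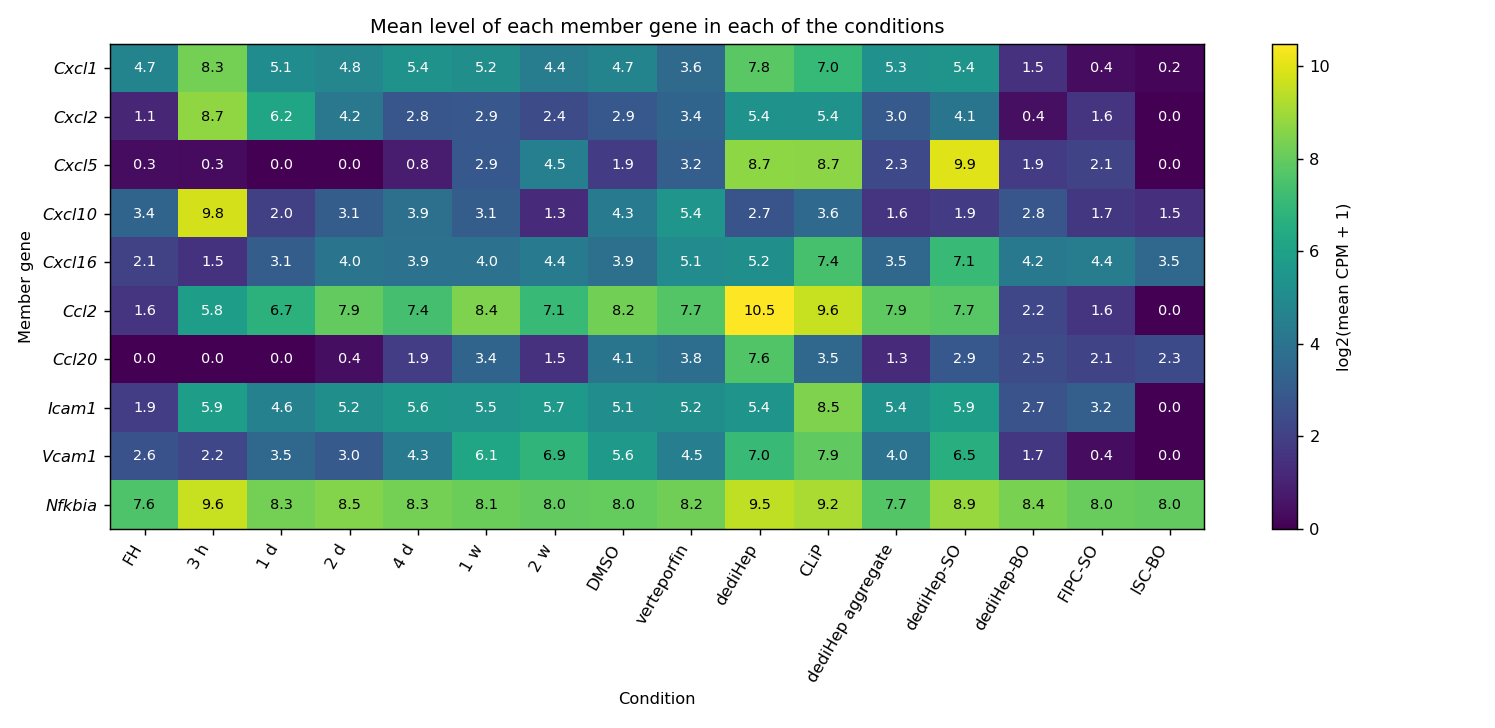
Mean level of the 10 member genes (rows) in the 16 conditions (columns) as log2(mean CPM + 1), with the value printed in each cell and colour running from dark (0) to yellow. Cxcl10 is bright only at 3 h, Cxcl5 in dediHep, CLiP and dediHep-SO, and the ISC-BO column is at 0 for Cxcl2, Cxcl5, Ccl2, Icam1 and Vcam1.

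In dediHeps 8 of the 10 members were higher than in FH, against 13.1% of the 11276 genes tested, and only Cxcl10 (-1.56 ± 0.722, adjusted p = 0.114) and Nfkbia (1.01 ± 0.308, adjusted p = 0.0227) missed the thresholds. Compared with the 2 weeks cultures, 5 of 9 were higher again, namely Cxcl1, Cxcl2, Cxcl5, Ccl2 and Ccl20, against 3.84% of 11167 genes. All 5 are secreted chemokines, while the adhesion molecules did not pass the test in that comparison.

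Ccl2 was at its highest in dediHeps, at 2044.9, 1706.7, 832.0, 1492.7 and 1042.0 CPM. The lowest of these lay above every other library of the series but one CLiP library at 944.0 CPM, and the change was 8.58 ± 0.808 over FH (adjusted p = 1.27e-05, and 9.98 without FH replicate 1) and 3.34 ± 0.408 over 2 weeks (adjusted p = 0.00107). Up to 3587 counts lay behind these values, near the ceiling of 4096, so the folds could be too small.

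Cxcl5 varied widely between cultures, at 611.0, 388.0, 42.5, 772.8 and 246.3 CPM, but even the lowest exceeded the highest 2 weeks library (32.1 CPM). The change over 2 weeks was 4.12 ± 0.829 (adjusted p = 0.0145), and over FH the pooled ratio was 1556.0-fold (279.1 to 61474.3), or 961.0-fold without FH replicate 3 and at least 356.0-fold without FH replicate 1, which held the only count. Cxcl1 was at 356.0, 240.2, 166.1, 104.9 and 233.6 CPM, of which 1 library lay in the 3 h range (275.5 to 360.4 CPM) and 4 below it, and was 2.25 ± 0.479 above FH (adjusted p = 0.00349) and 3.34 ± 0.447 above 2 weeks (adjusted p = 0.00175). Without dediHep replicate 1 the first of these was 1.99, just under the fold threshold.

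Cxcl2 was at 93.1, 41.7, 2.81, 53.3 and 9.18 CPM and Ccl20 at 865.3, 51.7, 11.2, 25.8 and 29.1 CPM. The lowest Cxcl2 library lay within the 2 weeks range of 2.74 to 5.68 CPM, whereas all Ccl20 libraries lay above theirs (0.783 to 3.48 CPM). Ccl20 was at least 205.5-fold higher than in FH, where it had no count, but replicate 1 held 1412 of the 1661 dediHep counts and without it the bound was 36.3-fold (126.9-fold without FH replicate 3). The fitted change over 2 weeks was 6.95 ± 1.91 (adjusted p = 0.0431), and it was 4.19 without dediHep replicate 1 and 7.59 without 2 w replicate 3. Cxcl2 rose by 4.12 ± 1.26 over FH (adjusted p = 0.0233, 4.72 without FH replicate 3 and 3.53 without dediHep replicate 1) and by 3.11 ± 1.02 over 2 weeks (adjusted p = 0.0764). Both calls over 2 weeks were lost without any one of the 3 2 weeks libraries, and that of Cxcl2 also without dediHep replicate 2, which left 3 or 4 of the 5 calls.

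Icam1 in dediHeps, at 46.0, 27.5, 24.2, 63.7 and 50.0 CPM, did not leave the range of the plated cultures (-0.31 ± 0.39 against 2 weeks, adjusted p = 0.63) but was 3.06 ± 0.542 above FH (adjusted p = 0.00106). Vcam1 differed by a wide margin between cultures, at 352.4, 38.0, 8.43, 106.1 and 149.4 CPM, with replicate 3 close to the FH range. It rose by 3.79 ± 1.1 over FH (adjusted p = 0.0186, and 2.98 without dediHep replicate 1), and its change over 2 weeks was 0.10 ± 0.828. Cxcl16, at 44.7, 8.45, 19.7, 91.1 and 16.3 CPM, rose by 2.58 ± 0.857 over FH (adjusted p = 0.034), a call lost without dediHep replicate 4 (1.87) or FH replicate 1 (2.24).

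Nfkbia was at 929.6, 747.0, 609.4, 662.1 and 607.5 CPM, all above the 2 weeks libraries (227.8 to 282.3 CPM). Its change of 1.41 ± 0.254 over 2 weeks had an adjusted p of 0.00845 and stayed under the fold threshold. Cxcl10 remained low, at 9.19, 6.86, 4.21, 4.99 and 3.06 CPM, which set it apart from the other members that rose at 3 h.

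In dediHeps 6 of 11 macrophage markers were at 0 in all 5 libraries (Adgre1, Marco, Cd5l, Timd4, Vsig4 and Tyrobp), and the list summed to 20.9 to 210.2 CPM, of which Cd14 made 19.4 to 207.7 CPM. Endothelial markers summed to 0.528 to 1.23 CPM and stellate and fibroblast markers to 0 to 1.84 CPM, at or near the floor. The mesothelial list summed to 461.9 to 1449.3 CPM through Msln (426.5 to 1202.7 CPM), and 2 of 2 tested mesothelial, 3 of 4 cholangiocyte and 3 of 3 intestinal epithelial markers were higher than in FH. The part of these cell types in the result was not tested.

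When dediHeps re-differentiated as aggregates, 5 of the 10 members fell relative to monolayer dediHeps, against 5.11% of 11265 genes: Cxcl1, Cxcl5, Ccl2, Ccl20 and Vcam1. Hepatocyte markers summed to 6902.9 to 9851.9 CPM in these aggregates. Of the mesothelial list 2 of 3 tested genes were lower (summed level 80.4 to 252.0 CPM, from 461.9 to 1449.3 CPM), as were 1 of 4 cholangiocyte and 1 of 3 intestinal epithelial markers, and their part in the fall was not tested. Cxcl5 dropped from 42.5 to 772.8 CPM to 0, 6.36 and 5.68 CPM (-6.37 ± 1.08, adjusted p = 0.00482), and Ccl2 from 832.0 to 2044.9 CPM to 61.7, 375.9 and 272.6 CPM (-2.40 ± 0.535, adjusted p = 0.0168). In both genes every aggregate library lay below every dediHep library.

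Cxcl1 fell to 37.4, 47.9 and 29.3 CPM (-2.31 ± 0.418, adjusted p = 0.00638) and Ccl20 to 0, 2.97 and 1.42 CPM (-6.65 ± 1.85, adjusted p = 0.0381), again without overlap. Vcam1, at 11.7, 11.9 and 21.8 CPM, overlapped the lowest dediHep culture and fell by 2.88 ± 0.972 (adjusted p = 0.0701). The calls on Ccl20 and Vcam1 were lost without any one of the 3 aggregate libraries, that on Vcam1 also without dediHep replicate 1 (-2.10), and that on Ccl2 without aggregate replicate 1 (-1.97), so that between 2 and 6 members were called. Without dediHep replicate 1 the change of Ccl20 was -3.95, and without aggregate replicate 2 it was -7.56.

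Since the 3 aggregates came from 3 of the dediHep cultures, the comparison was also made with the culture as a block. The call count became 6, and the share of all genes called in the blocked fit was not recorded. The added member was Cxcl2, at 0.734, 3.39 and 16.1 CPM in the aggregates of the cultures that as monolayers had 93.1, 41.7 and 53.3 CPM, which was lower in every culture (-3.23 ± 0.735 in the blocked fit, against -2.30 ± 1.09 and adjusted p = 0.167 without the block). Vcam1 was also lower in each of these cultures, from 352.4, 38.0 and 106.1 CPM. Nfkbia went from 607.5 to 929.6 CPM down to 197.5, 223.6 and 187.4 CPM, a change of -1.59 ± 0.254 (adjusted p = 0.00351) that passed the p but not the fold threshold.

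Icam1 did not follow the chemokines. It was at 5.87, 44.6 and 72.9 CPM in the aggregates, on both sides of the dediHep range, and its change of 0.17 ± 0.6 (adjusted p = 0.863) turned to -0.25 ± 0.611 in the blocked fit. Against FH, only 4 members passed the filter in aggregates, and Ccl2 was higher (6.18 ± 0.894, adjusted p = 0.000527, and 7.56 without FH replicate 1), 1 of 4 against 6.78% of 9544 genes. Icam1 and Cxcl5, which did not pass that filter, became called when all 49 libraries were fitted together or no filter was used, as did Cxcl10 in the lower direction.

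In spherical organoids 3 of the 10 members fell relative to dediHeps, against 4.65% of 11470 genes, while Cxcl5 and Cxcl16 stood at their highest or near it. Ccl2 was at 133.7, 190.7 and 314.1 CPM (-2.76 ± 0.403, adjusted p = 0.00129), Cxcl1 at 33.4, 45.0 and 45.8 CPM (-2.40 ± 0.425, adjusted p = 0.004) and Ccl20 at 4.09, 2.02 and 13.2 CPM (-5.00 ± 1.64, adjusted p = 0.0796). Ccl2 and Cxcl1 lay below every dediHep library. Ccl20 overlapped the lowest of them, its call was lost without any one dediHep-SO library, and its change was -2.24 without dediHep replicate 1 and -5.91 without dediHep-SO replicate 3.

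Cxcl5 reached 824.6, 1129.1 and 1004.9 CPM in dediHep-SO, all above the 5 dediHep libraries, but the change of 1.25 ± 0.641 had an adjusted p of 0.253. Cxcl16 was at 174.7, 128.5 and 96.4 CPM, also above all dediHep libraries, with a change of 1.89 ± 0.639 (adjusted p = 0.0878) that stayed under the fold threshold. With the culture as a block, as 3 cultures gave both kinds of library, Cxcl16 was called higher (2.72 ± 0.52) and 4 members were called in all. It was also called without dediHep replicate 4 or dediHep-SO replicate 3. The shares of all genes called in these alternative fits were not recorded. Vcam1, at 79.2, 83.5 and 115.4 CPM, differed by -0.52 ± 0.844 without the block and by 1.03 ± 1.06 with it, and Icam1, at 74.0, 69.8 and 31.1 CPM, did not pass the test either. Between these groups 4 of 5 tested hepatocyte markers and 1 of 2 mesothelial ones were lower in dediHep-SO, and 1 of 3 macrophage, 1 of 5 cholangiocyte and 1 of 4 intestinal epithelial markers were higher, and their part was not tested.

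Budding organoids were lower than spherical ones for 7 of the 9 members tested, against 5.68% of 11301 genes. Cxcl5 fell to 0.539, 5.52 and 1.91 CPM (-8.54 ± 0.526, adjusted p = 2.13e-05), Ccl2 to 2.15, 8.03 and 0.957 CPM (-5.85 ± 0.624, adjusted p = 0.000173) and Cxcl1 to 1.62, 2.51 and 1.44 CPM (-4.48 ± 0.406, adjusted p = 7.75e-05). The adhesion molecules fell with them, Vcam1 to 1.62, 5.02 and 0 CPM (-5.40 ± 0.662, adjusted p = 0.000362) and Icam1 to 2.69, 8.53 and 5.26 CPM (-3.45 ± 0.502, adjusted p = 0.000938).

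Cxcl16 fell to 17.2, 29.1 and 6.7 CPM (-2.97 ± 0.491, adjusted p = 0.00198). Cxcl2 was left with 2 counts in the 3 dediHep-BO libraries, and the pooled ratio of spherical over budding organoids was 44.9-fold (12.1 to 376.1). It was 29.1-fold without dediHep-BO replicate 3, 29.0-fold without dediHep-SO replicate 3, and at least 19.9-fold without dediHep-BO replicate 2, which held both counts. In these 7 genes no budding organoid library reached the lowest spherical one. They were picked by the call, so this adds nothing to it. All 7 stayed called when any single library was left out. The fitted changes moved most without dediHep-BO replicate 2, to -9.55 for Cxcl5, -7.05 for Ccl2, -6.79 for Vcam1 and -8.08 for Cxcl2, while that of Vcam1 was -4.76 without dediHep-BO replicate 3 and that of Cxcl2 -4.65 without dediHep-SO replicate 3. Nfkbia, at 316.7, 402.5 and 267.0 CPM against 411.1 to 531.2 CPM, differed by -0.54 ± 0.232 (adjusted p = 0.102), and Ccl20 did not pass the test. The Cdx2 transgene, the change of medium and the budding form cannot be told apart in this comparison. Markers of other cell types moved with it. Of the macrophage list 2 of 3 tested genes were lower in dediHep-BO (summed level 31.2 to 40.6 CPM, against 55.3 to 187.6 CPM), as were Ly6g, the tested gene of the lymphocyte and neutrophil list (-4.96 ± 0.453), Msln, that of the mesothelial list (-5.43 ± 0.536), and 2 of 6 cholangiocyte markers, and 4 of 7 intestinal epithelial markers were higher. The stellate and fibroblast list, of which 0 genes passed the filter, summed to 0 to 1.36 CPM in dediHep-SO and 4.78 to 335.2 CPM in dediHep-BO. The part of all these cell types in the fall of the members was not tested.

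**Figure D3:**
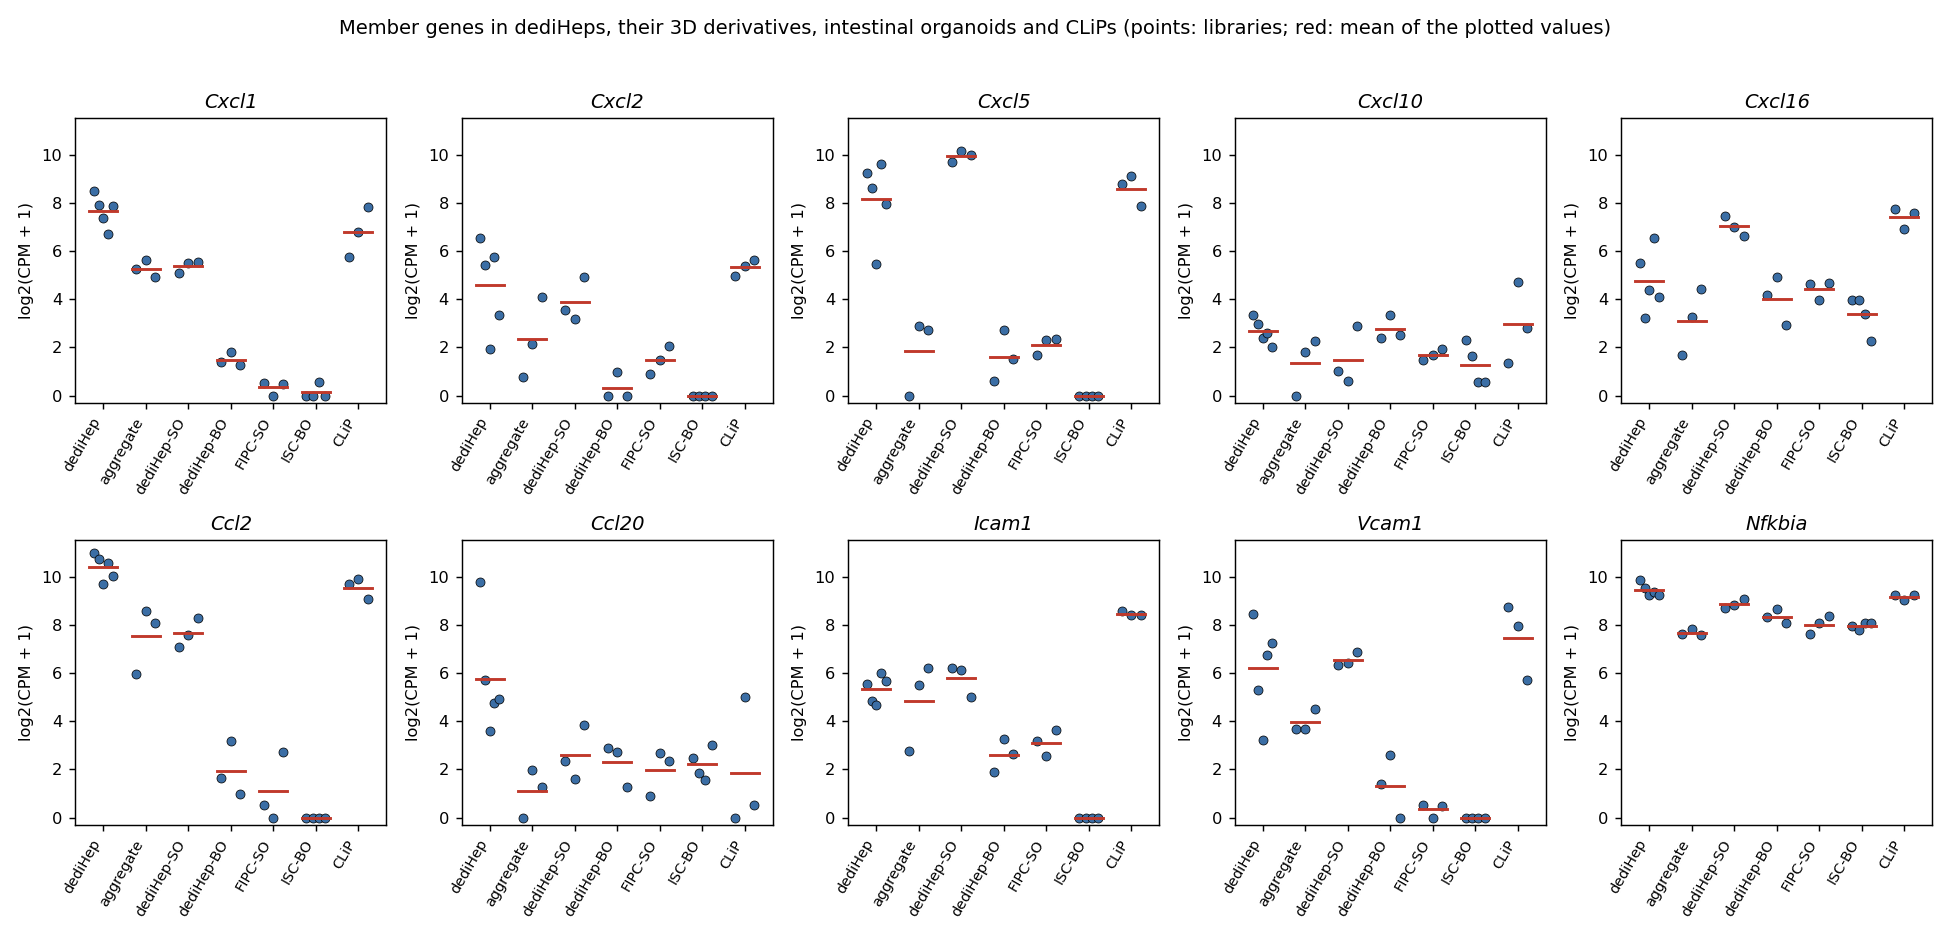
Levels of the 10 member genes as log2(CPM + 1) in dediHeps, aggregates, spherical and budding organoids of dediHep origin (dediHep-SO, dediHep-BO) and of intestinal origin (FIPC-SO, ISC-BO) and in CLiPs, where each point is a library and each red line the mean of the points. Cxcl5, Ccl2 and Vcam1 are high in dediHep-SO (79.2 CPM or more in every library) and near 0 in FIPC-SO and both kinds of budding organoid, and Icam1 is highest in CLiPs.

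Spherical organoids of dediHep origin were higher than those of fetal intestinal origin for 7 of the 8 members tested, against 4.92% of 11608 genes. Cxcl5 was at 2.21, 4.0 and 4.04 CPM in FIPC-SO (8.30 ± 0.364, adjusted p = 1.03e-05) and Ccl2 at 0.443, 0 and 5.65 CPM (6.76 ± 0.851, adjusted p = 0.000745, and 9.66 without FIPC-SO replicate 3). Vcam1 and Cxcl1 each had 2 counts in the 3 FIPC-SO libraries, and their pooled ratios were 316.2-fold (87.2 to 2617.1) and 140.7-fold (38.6 to 1167.3).

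Icam1, at 7.97, 4.89 and 11.3 CPM in FIPC-SO, was 3.01 ± 0.477 higher in dediHep-SO (adjusted p = 0.0025), Cxcl2 3.09 ± 0.628 (adjusted p = 0.0092, and 2.44 without dediHep-SO replicate 3) and Cxcl16, at 23.5, 14.7 and 24.2 CPM in FIPC-SO, 2.82 ± 0.375 (adjusted p = 0.000973). The libraries of the 2 origins did not overlap in any of the 7. These were picked by the call, so the lack of overlap adds nothing to it. Nfkbia was at 193.9, 267.8 and 326.1 CPM in FIPC-SO and its change of 0.97 ± 0.254 (adjusted p = 0.0283) stayed under the fold threshold. The mesothelial list summed to 675.0 to 1029.0 CPM in dediHep-SO and 399.4 to 561.0 CPM in FIPC-SO, with 1 of its 2 tested genes lower in dediHep-SO. Ly6g, of the lymphocyte and neutrophil list, was at 34.3 to 57.0 CPM in dediHep-SO and 2.22 to 17.0 CPM in FIPC-SO, while Ptprc had no count in either. Of 11 macrophage markers 8 had no count in dediHep-SO, but 2 of the 3 tested were higher than in FIPC-SO, Csf1r and Cd14, and the list summed to 55.3 to 187.6 CPM against 10.6 to 14.5 CPM. The stellate and fibroblast list summed to 0 to 1.36 CPM in dediHep-SO and 6.22 to 591.3 CPM in FIPC-SO. The part of these cell types was not tested.

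Between the budding organoids of the 2 origins no member was called. Of 10 members 3 passed the filter and 0 of them were called by edgeR or by DESeq2, against 3.05% of 11303 genes, with none at an unadjusted p under 0.05: Cxcl16 (0.67 ± 0.529), Ccl20 (0.10 ± 0.605) and Nfkbia (0.35 ± 0.203). The other members were rare in both. The 4 ISC-BO libraries held no count of Cxcl2, Cxcl5, Ccl2, Icam1 and Vcam1, while the 3 dediHep-BO libraries held 16 counts of Cxcl5, 22 of Ccl2, 33 of Icam1 and 13 of Vcam1. Against the floor of 3 counts over the pooled group, dediHep-BO were at least 15.3-fold higher for Icam1, 10.2-fold for Ccl2, 7.44-fold for Cxcl5 and 6.04-fold for Vcam1. Replicate 2 of dediHep-BO held 16 of the 22 counts of Ccl2, 11 of the 16 of Cxcl5 and 10 of the 13 of Vcam1. Without it the bounds were 11.2-fold for Icam1, 4.2-fold for Ccl2 and 3.5-fold for Cxcl5, Vcam1 was at the floor and had none, and without replicate 3, which held no Vcam1, its bound was 9.32-fold. With no filter on low counts 5 members were called higher in dediHep-BO (Cxcl1, Cxcl5, Ccl2, Icam1 and Vcam1), and without dediHep-BO replicate 1 Icam1 was called. The shares of all genes called in these alternative fits were not recorded.

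Between ISC-BO and FIPC-SO, Icam1 was lower in ISC-BO, 1 of the 4 members tested against 2.62% of 11644 genes, with 0 counts against 57, and FIPC-SO were at least 22.5-fold higher. Whether the difference between budding and spherical organoids differed between the origins was tested as an interaction in 1 fit of the 4 organoid groups. FIPC-SO came from fetal and ISC-BO from adult intestine, the media differed, and only dediHep-BO carried the Cdx2 transgene. Age, medium, transgene and organoid form cannot be told apart in this test. In that fit 3 of 3 tested stellate and fibroblast markers were called higher (5.37% of all genes), and their part was not tested. Cxcl16 was the member called, 1 of 10 against 4.08% of 12379 genes, with a further fall of 2.18 ± 0.696 in the dediHep lineage (adjusted p = 0.0599). In ISC-BO its level was 14.8, 14.5, 9.53 and 3.83 CPM, of which 1 library reached the range of FIPC-SO. This call was lost in 8 of the 13 leave-one-out fits, where the change lay between -1.76 and -2.30, namely without replicate 1 or 2 of dediHep-SO, 1 or 3 of dediHep-BO, 2 or 3 of FIPC-SO and 1 or 2 of ISC-BO. It was also lost in the fit of all 49 libraries (-2.22) and with library totals as the scale (-1.95), where Icam1 was called in the other direction (3.74). DESeq2 also called Cxcl1, Cxcl5 and Vcam1, of which the intestinal groups held few or no counts.

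CLiPs differed from dediHeps in 1 of the 10 members, against 1.65% of 11567 genes. Icam1 was at 379.6, 334.1 and 336.5 CPM in CLiPs, above the 24.2 to 63.7 CPM of dediHeps and above every other library of the series, a rise of 3.11 ± 0.376 (adjusted p = 0.00597). Cxcl16, at 210.7, 120.1 and 188.5 CPM, also lay above all dediHep libraries, but its change of 2.34 ± 0.668 had an adjusted p of 0.107 in the edgeR fit of these groups. It was called by DESeq2 (2.36), in the fit of all 49 libraries (2.31), with no filter on low counts (2.33), without dediHep replicate 4 (3.06) and without CLiP replicate 2 (2.62).

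None of the other 8 members passed the test in the edgeR fit of these groups. Ccl2, at 819.2, 944.0 and 535.7 CPM, differed by -0.88 ± 0.346 (adjusted p = 0.234), and Cxcl5, at 445.2, 545.1 and 231.6 CPM, by -0.03 ± 0.69. Ccl20 had 0, 30.7 and 0.427 CPM, with nearly all of its counts in 1 library, and Vcam1 429.2, 246.3 and 51.2 CPM. Of the macrophage list 7 of 11 markers had no count in CLiPs, while Csf1r was at 78.0 to 129.2 CPM and Cd14 at 38.4 to 278.3 CPM, and their part in the level of Icam1 was not tested.

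Verteporfin for 1 week changed 0 of the 9 tested members at these thresholds by edgeR, and 0 by DESeq2, against 0.269% of 10400 genes. At an unadjusted p under 0.05 there were 4, and the share of all genes at that level was not counted. Cxcl10 was at 33.9 and 51.6 CPM with verteporfin and at 18.8 and 17.9 CPM with DMSO (1.24 ± 0.342, adjusted p = 0.276) and Cxcl16 at 40.0 and 24.5 CPM against 18.1 and 8.93 CPM (1.30 ± 0.437, adjusted p = 0.403). Vcam1 was at 20.3 and 21.8 CPM against 45.9 and 51.8 CPM (-1.18 ± 0.313, adjusted p = 0.252), and Cxcl1 at 8.13 and 14.5 CPM against 27.1 and 24.4 CPM (-1.15 ± 0.385, adjusted p = 0.403). In each of the 4 the pairs of libraries did not overlap, and how many of all genes showed this was not counted. With 2 libraries a group these differences could not be told from the spread once adjusted for all genes.

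**Figure D4:**
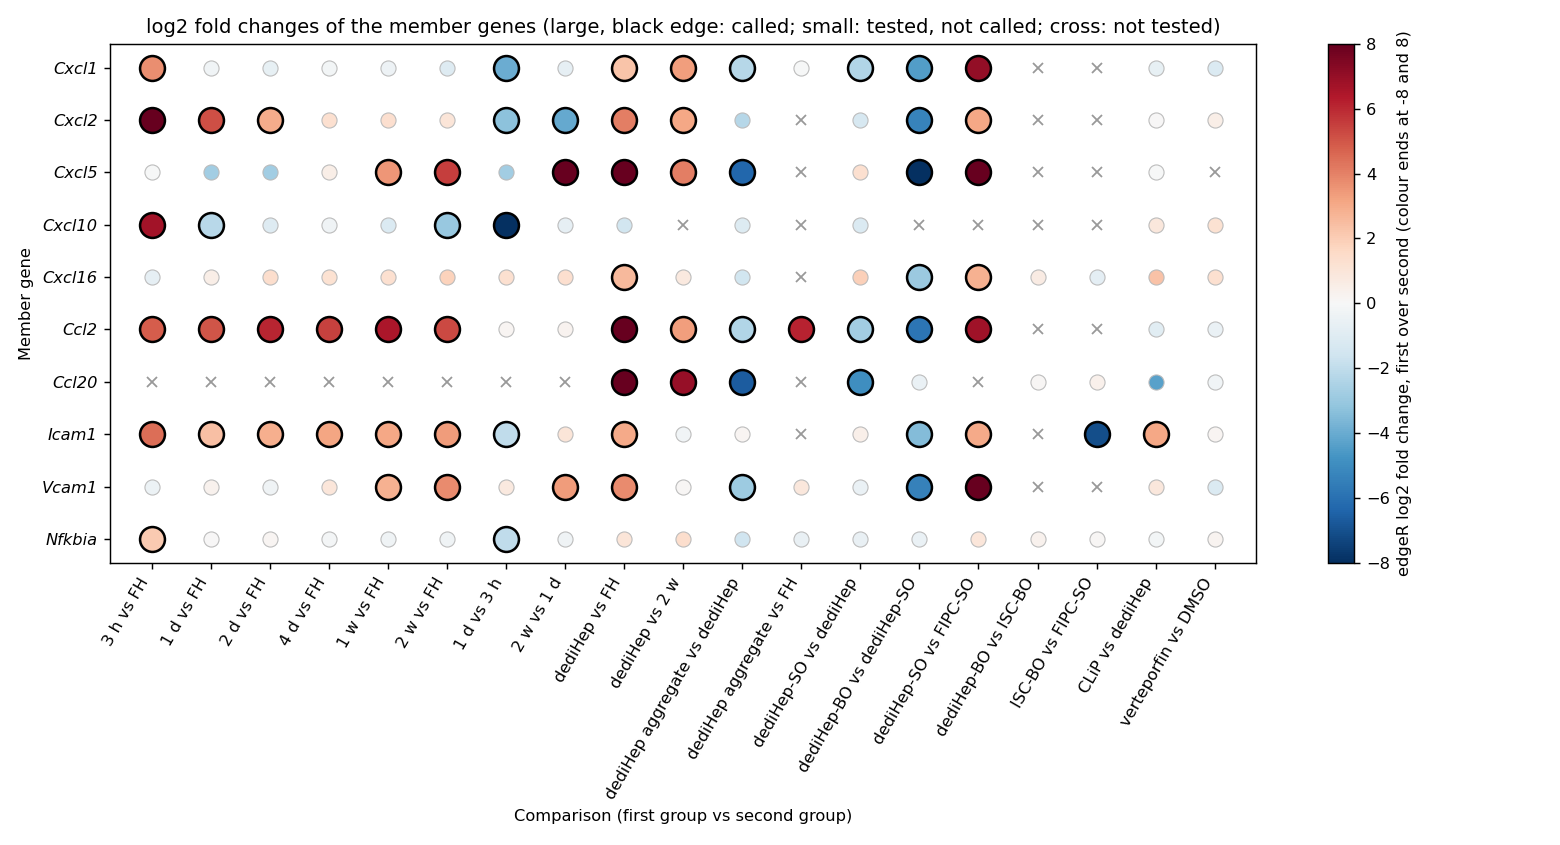
edgeR log2 fold changes of the 10 member genes (rows) in 19 comparisons (columns, first group over second), red for higher and blue for lower. Large circles with a black edge were called (adjusted p under 0.1 and a change of more than 2), small circles were tested and not called, and crosses did not pass the filter on low counts. The 3 h column holds 6 called circles, dediHep vs FH 8 and dediHep-BO vs dediHep-SO 7, all in 1 direction each.

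The condition with the highest mean was 3 h for Cxcl1 (314.0 ± 43.0 CPM, SD, n = 3), Cxcl2 (428.8 ± 403.4), Cxcl10 (886.3 ± 231.3) and Nfkbia (764.8 ± 106.4). It was dediHep for Ccl2 (1423.7 ± 491.6, n = 5) and Ccl20 (196.6 ± 374.1, n = 5), dediHep-SO for Cxcl5 (986.2 ± 153.1, n = 3), and CLiP for Cxcl16 (173.1 ± 47.3, n = 3), Icam1 (350.1 ± 25.6, n = 3) and Vcam1 (242.2 ± 189.0, n = 3). Only for Cxcl5, Cxcl10 and Icam1 did the libraries of the highest condition lie wholly above those of the next. The share of all genes with such a gap was not counted.

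Most neighbours in the order of the 16 means overlapped. Of the 15 neighbouring pairs of each gene, the libraries were apart in 4 for Cxcl5 and Icam1, 3 for Cxcl1 and Cxcl16, 2 for Cxcl10 and Nfkbia, 1 for Cxcl2, Ccl2 and Vcam1, and 0 for Ccl20. How often neighbours lie apart over all genes was not counted, so these numbers only describe the members. Cxcl10 fell from 886.3 CPM at 3 h to 42.7 ± 12.5 CPM in the verteporfin cultures, the next condition. One of the 3 gaps of Cxcl1 lay between CLiP (129.2 ± 88.6 CPM) and the condition after it, dediHep-SO (41.4 ± 6.94 CPM). Nfkbia had the narrowest range of the members, from 191.7 ± 33.8 CPM in FH to 764.8 CPM at 3 h, a ratio of 3.99, whereas Icam1 went from no count in ISC-BO to 350.1 CPM.

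Likeness across conditions was taken as the Pearson correlation of the 16 group means of log2(CPM + 1), a description that shares libraries and scaling and carries no p. Among the members it was highest for Ccl2 with Icam1 (0.885), Ccl2 with Vcam1 (0.855), Cxcl5 with Cxcl16 (0.851) and Cxcl1 with Cxcl2 (0.814). Over all genes that reached a mean of 10 CPM in some condition, the closest to Cxcl1 was Sik1 (0.912), to Cxcl2 the stress-induced transcription factor gene Atf3 (0.863), to Cxcl5 Chst8 (0.965), to Cxcl10 Gm6977 (0.94) and to Cxcl16 Dnajc10 (0.922). For Ccl2 it was the oncostatin M receptor gene Osmr (0.952), for Ccl20 Gramd4 (0.881), for Icam1 the protease gene Adamts1 (0.899), for Vcam1 Hip1 (0.96) and for Nfkbia the interferon regulatory factor gene Irf1 (0.779). Adamts1 and Osmr were among the 3 closest genes of both Ccl2 and Icam1.

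In the list of 25 NF-κB subunits, inhibitors and kinases, 5 of 22 tested were higher at 3 h than in FH, against 3.06% of all genes, and 0 lower, with a list median of 0.60 against -0.07 for all genes. They included the IκB-like genes Nfkbiz (3.53 ± 0.504, adjusted p = 9.84e-05) and Bcl3 (2.50 ± 0.503), the feedback inhibitor Tnfaip3 (8.03 ± 1.73) and the subunit gene Nfkb1 (2.21 ± 0.71). By 1 day, Nfkbiz, Bcl3 and Tnfaip3 had fallen from their 3 h level (-3.53, -2.13 and -5.05). The list as a whole did not fall, with 4 of 22 tested higher and 4 lower against 24.2% of all genes in either direction. Its median change was -0.01, against 0.08 for all genes. Nfkb2, which encodes the p100 precursor of the non-canonical pathway, was higher than FH at every time from 1 day (3.16 ± 0.497, adjusted p = 3.66e-05) to 2 weeks (2.92 ± 0.493) and in dediHeps (3.05 ± 0.361, adjusted p = 6.53e-05).

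Among 22 other targets, 3 of 12 tested were higher at 3 h (3.06% of all genes), namely Lcn2 (5.78 ± 0.475), Ier3 (4.04 ± 0.589) and Gadd45b (3.86 ± 0.699), and Lcn2 and Ier3 stayed higher than FH at every later time. Sod2 was called lower than FH at 4 days (-2.19 ± 0.35), 1 week (-2.24 ± 0.35) and 2 weeks (-2.83 ± 0.361). It was the 1 lower of 12 each time (12.4%, 12.8% and 15.3% of all genes), beside 4, 7 and 6 higher (11.4%, 13.2% and 14.1%). In aggregates against dediHeps, Lcn2 was higher (2.09 ± 0.687), 1 of 10 against 4.39% of all genes, and 2 of 10 were lower against 5.11%. In budding against spherical organoids 5 of 10 fell (5.68% of all genes) and 0 rose, with a median of -2.13 against 0 for all genes, led by Lcn2 (-9.00 ± 0.662, adjusted p = 2.59e-05), Bcl2l1 (-3.41 ± 0.321), Tnfaip2 (-2.79 ± 0.363) and Ier3 (-4.03 ± 0.539). Spherical organoids of dediHep origin were higher than those of fetal intestine in 5 of 10 (4.92% of all genes), including Tnf (3.60 ± 0.473), which encodes a main activator of the pathway and was also 5.83 ± 0.717 above dediHeps, and again 0 were lower. Nfkbie and Nfkb2 fell in the same step to budding organoids (-3.89 ± 0.584 and -2.48 ± 0.391), 2 of 20 tested in their list against the same 5.68%.

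The 27 other chemokines did not move as one. At 3 h Ccl7, a monocyte attractant encoded next to Ccl2, was 7.94 ± 1.28 above FH and the CXCR3 ligand Cxcl9 2.87 ± 0.766 above it, 2 of 7 tested against 3.06% of all genes. In dediHeps Ccl7 (8.57 ± 1.61), Cx3cl1 (8.44 ± 1.38) and Cxcl17 (8.61 ± 1.66) were higher than in FH and Cxcl12 (-6.88 ± 0.822) and Ccl9 (-7.95 ± 0.783) lower, that is 3 of 6 tested higher against 13.1% of all genes and 2 lower against 12.6%. In dediHep-SO the platelet chemokine genes Pf4 (8.92 ± 0.741) and Ppbp (3.77 ± 0.909) were higher than in dediHeps and Ccl7 (-4.97 ± 0.837) and Cxcl17 (-2.65 ± 0.849) lower, and in budding organoids the gut chemokine gene Ccl25 rose by 6.01 ± 0.468 over dediHep-SO while Pf4 and Ppbp fell.

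Of 19 upstream receptor genes, 4 of 17 tested were higher at 3 h (3.06% of all genes), namely Tnfrsf12a, which encodes the TWEAK receptor (4.42 ± 0.566), the interleukin-1 receptor gene Il1r1 (2.97 ± 0.469), Tlr2 (3.16 ± 0.875) and Tnfrsf1b (2.27 ± 0.48). Tnfrsf12a stayed higher than FH at every later time and in dediHeps (4.41 ± 0.575), where Il1r1 (-4.86 ± 0.624) and its partner Il1rap (-5.84 ± 0.686) were lower. In CLiPs Il1r1 was 3.51 ± 0.676 (adjusted p = 0.0272) and Tlr2 2.20 ± 0.601 (adjusted p = 0.0935) above dediHeps, 2 of 17 against 1.65% of all genes, together with the NF-κB-inducing kinase gene Map3k14 (2.61 ± 0.545) and Lcn2 (2.87 ± 0.669). Of the 13 receptors on leukocytes that bind the members' products, at most 2 passed the filter in any comparison, and the β2 integrin gene Itgb2 was lower in dediHeps than in FH (-5.13 ± 0.758). It was also lower than FH at 3 h (-5.70 ± 1.9), at 4 days (-3.43 ± 1.33) and in aggregates (-6.73 ± 0.93). It was higher at 1 day than at 3 h (4.80 ± 1.93) and in dediHep-SO than in FIPC-SO (4.47 ± 0.738), and at 2 weeks its change over FH was -0.19 ± 1.15.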

How the data were processed

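CEL-seq2 libraries of 49 samples in 16 groups were analysed. The values are raw UMI counts per gene as deposited by the authors, whose processing notes list bcl2fastq 2.20, Bowtie2 2.3.1, HTSeq 0.6.0 and GRCm38, and per the methods of the study edgeR with the thresholds used here (adjusted p under 0.1, log2 fold change over 2). The annotation used for counting is not given in the sources used here. Gene symbols and positions came from GENCODE M21 (GRCm38). The member genes and all gene lists were chosen with earlier results of these data known.

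Levels are CPM of the library total, with SD over libraries. Groups were compared with edgeR 4.0.16 (R 4.3.3) by the quasi-likelihood F test with TMM scaling and filterByExpr (minimum count 10, minimum total 15), with Benjamini-Hochberg adjustment over all genes tested. FH and the 6 plating times were 1 fit of 21 libraries, other comparisons were fitted on their own groups, and the organoid interaction on 4 groups. Tests were two-sided. SE is the log2 fold change divided by the square root of F. Folds against groups of 3 counts or fewer were computed on pooled CPM, with a floor of 3 counts over the group and 95% intervals that cover counting error only. The fits were tested on simulated data. All 10 members, up to 4 called genes with the smallest p for each other list and comparison, and the 3 genes closest to each member were eligible to be named.

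Alternatives were size factors by relative log expression, no low-count filter, DESeq2 1.42.0, 1 fit of all 49 libraries, a fold threshold of 1, replicate blocks and leaving out each library, and, added after seeing the data, a correction for UMI collisions and library totals in place of TMM. The labels tie each aggregate and 3 dediHep-SO libraries to dediHep cultures. Deviations of same-culture libraries from their group means correlated with r of 0.178 to 0.357 for aggregates and -0.494 to 0.0436 for dediHep-SO. Cxcl2 shared 10.9% of the 31-mers in its last 500 transcript bases with other genes, Icam1 1.06% and Nfkbia 0.319%, and the other members none. By their models Cxcl10 overlaps Art3, Cxcl16 overlaps Zmynd15 and Ccl2 overlaps Gm17268, and Icam1 and Vcam1 overlap antisense genes. Whether counting used strand is not given in the sources used here.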

Additional observations from a re-analysis of the deposited data

Results flagged for a closer look

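Ccl20 stood at 865.3 CPM in dediHep replicate 1, while the other 4 dediHep libraries held 11.2 to 51.7 CPM, so that this library lay farther from its group than Dixon's test allows at the 95% level. The same library had the highest level of its group for Cxcl1 (356.0 CPM), Cxcl2 (93.1 CPM), Ccl2 (2044.9 CPM), Vcam1 (352.4 CPM) and Nfkbia (929.6 CPM).

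Cxcl1 was at 0.477 CPM in ISC-BO replicate 3, which is a single count, against none in the other 3 ISC-BO libraries. A single count among zeros meets Dixon's test by construction and lies under the floor of 3 counts. Of the 15 pairs of a member and a group tested, Ccl20 was thus the 1 that rests on measured levels, and chance gives about 1 in 20.

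The difference of Cxcl16 between budding and spherical organoids differed between the origins, by -2.18 ± 0.696 on the log2 scale in the interaction test (edgeR, adjusted p = 0.0599). Its level was 174.7, 128.5 and 96.4 CPM in dediHep-SO and 17.2, 29.1 and 6.7 CPM in dediHep-BO. In FIPC-SO it was 23.5, 14.7 and 24.2 CPM and in ISC-BO 14.8, 14.5, 9.53 and 3.83 CPM. Age, medium, organoid form and the Cdx2 transgene cannot be told apart in this test. The call was lost in 8 of the 13 leave-one-out fits, in the fit of all 49 libraries (-2.22) and with library totals as the scale (-1.95).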

How the results depend on the processing

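Of 168 tested values of a member in a comparison 71 were called, and no called value changed its direction under any alternative. Relative log expression scaling and the UMI collision correction changed no call on a member. Between 1 day and 3 h, 3 members were called with no low-count filter, in the fit of all 49 libraries and with library totals, and 3 to 5 when single libraries were left out. From 1 day to 2 weeks, 5 were called with a fold threshold of 1. With no filter and in the fit of all libraries, respectively, there were 4 and 4 calls for aggregates over FH, 5 and 4 for dediHep-BO over ISC-BO, 4 and 2 for ISC-BO against FIPC-SO, 2 and 3 for CLiPs over dediHeps and 2 and 0 for the interaction. DESeq2 gave 2 for CLiPs and 4 for the interaction, and gave no adjusted p for Ccl20 in 4 comparisons in which edgeR called it. Leaving out single libraries gave 3 to 5 calls for dediHep against 2 weeks, 2 to 6 for aggregates against dediHeps, 1 to 2 for aggregates over FH, 0 to 1 for dediHep-BO over ISC-BO, 1 to 2 for CLiPs and 0 to 3 for the interaction. Over all comparisons this kept 436 called values and lost 42. The share of all genes called was recorded for the main fits only, so the counts under these alternatives have no background beside them. The cause was not tested.

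Library totals in place of TMM moved the share of higher genes among all calls by over 10 percentage points in 10 comparisons, among them from 44.3% to 71.8% between 3 h and 1 day, from 51% to 73% for dediHep and from 40.9% to 64.9% for aggregates over FH, and from 46.2% to 35.7% for aggregates against dediHeps and 56.8% to 68% for the interaction.

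Numbers in the column labels line up the 3 h libraries otherwise than those in the titles, and pairing by the column labels was not tested. Libraries with the same replicate number in the titles showed no clear pairing (r between -0.577 and 0.627 in the time course, and 0.438 for verteporfin with DMSO). With the number as a replicate block, Cxcl16 was lost for dediHep against FH (1.76), Vcam1 for aggregates against dediHeps (-1.53), Icam1 between 1 day and 3 h and Ccl20 for dediHep-SO (-4.18), and Cxcl16 was gained for dediHep-SO (2.69) and CLiPs (3.16, with 2 calls), and no other call changed.

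Depth limits the low members. Icam1, Ccl2, Cxcl5, Cxcl2 and Vcam1 in ISC-BO and Ccl20 before 2 days had no count, and their levels cannot be told from the floor.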
